A study of Mus musculus with 15 samples.

Results

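The genes described here are the chemokines, the small secreted proteins that direct cell migration, and the chemokine receptors, in cultures of mouse fibroblasts taken through cardiac reprogramming. Members were all rows of the gene count table whose symbol was Ccl, Cxcl, Ccr or Cxcr followed by digits, or Cx3cl1. This gave 51 of 37991 rows, 34 for ligands (20 of the CC class, 13 CXC and 1 CX3C) and 17 for receptors (10 CC and 7 CXC), with 50 symbols because Ccl25 has 2 rows. Of these, 4 rows had 0 counts in all 15 libraries, 33 passed the filter on low counts and were tested (24 ligands and 9 receptors), and 14 had counts but did not pass. Chemokine genes outside this rule, such as Pf4 or Cx3cr1, are given with the other pathway genes.

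Chemokines bind G protein-coupled receptors on the responding cell, and a gradient of ligand held on cell-surface heparan sulphate directs its movement. The inflammatory chemokines, among them Ccl2, Ccl7, Cxcl1 and Cxcl5, are switched on by cytokines such as interleukin 1 and tumour necrosis factor, in large part through the transcription factor NF-kB, and recruit monocytes and neutrophils. Homeostatic chemokines are made without such stimulation, and Cxcl12 with its receptor Cxcr4 is the best known of them, with roles in heart and vessel development and in holding stem cells in their niche. Atypical receptors such as Cxcr7, named Ackr3 in newer annotation, bind and remove the ligand and do not signal through G proteins in the usual way.

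RNA-seq was made from total RNA of 5 groups with 3 libraries each, all labelled wildtype and of mixed C57BL/6 and 129J/SvE background. The first group, MEF, was secondary mouse embryonic fibroblasts at passage 3, derived by the Wernig method, in which, as background, the cells carry inducible reprogramming factors. Day 9 cells had spent 6 days in a reprogramming medium, then 2 in a transdifferentiation medium and a last 1 in the ieCPC basal medium with the supplement labelled BACS. The ieCPCs (induced expandable cardiovascular progenitors) were isolated by sorting at day 13, grown on in that basal medium, and collected at passage 3 (P3) and passage 12 (P12). The CM group was cardiac derivatives, collected after ieCPCs had spent 25 days in serum-free cardiac differentiation medium. All groups thus go back to embryonic fibroblast cultures, and the media differ between groups together with the cell state. The passage of the ieCPCs that gave rise to the CM derivatives and the marker used in the sort are not given in the sources used here. The labels do not say whether the 3 libraries of a group are separate cultures, and the p-values therefore reflect the spread among these libraries alone, part or all of which may be technical.

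Library totals ran from 21823056 to 29996464 counts. Mitochondrial ribosomal RNA took 44.3 to 50.1% of the counts in CM libraries, against 18.1 to 25.2% in the others, and the third CM library stood farthest from its group. The sum of 11 cardiomyocyte markers was 13076 to 26710 CPM, the counts scaled to a common library size, in CM libraries, and lay at 13.2 to 15.5 in MEF, 19.8 to 24.4 at day 9, 82.4 to 92.5 at P3 and 131 to 165 at P12. The sum of 10 fibroblast markers, most of it from Col1a1, Col1a2 and Col3a1, was 15947 to 16754, 18854 to 19139, 15281 to 16017, 18102 to 18621 and 20167 to 23186 CPM in the same order with CM last. Its members went both ways, with Thy1 at 1.18 CPM at P3 against 415 in MEF, and Lum at 1249.6 CPM at P3 against 56.3 in MEF. The 9 progenitor markers summed to 201 to 213 CPM in MEF, 127 to 131 at day 9, 569 to 582 at P3, 618 to 639 at P12 and 653 to 841 in CM, with Nkx2-5 at 0 in MEF and at day 9. Endothelial markers (10 genes) summed to 33.7 to 36.1, 11.8 to 12.4, 71.3 to 75.8, 67.7 to 78.8 and 23.3 to 25.5 CPM, mostly Erg at P3 and P12, where Emcn and Cldn5 were at 0. The 5 smooth muscle markers summed to 2893 to 2949, 1670 to 1811, 1527 to 1585, 2769 to 2971 and 914 to 1395 CPM, and the 8 epithelial and pluripotency markers to 1.60 to 2.25, 293 to 335, 16.4 to 20.3, 20.4 to 21.1 and 19.4 to 25.7 CPM.

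Values are CPM on library sizes scaled by the trimmed mean of M-values (TMM), means are given ± SD over 3 libraries, and fold changes are log2 ± SE from edgeR. Summed over all ligands, transcripts ran from 588 to 614 CPM in MEF, 465 to 488 at day 9, 306 to 312 in P3 ieCPCs, 231 to 239 in P12 ieCPCs and 1516 to 1912 in CM derivatives. Cxcl12 made up much of this. Without it the sums were 217 to 235, 328 to 345, 57.3 to 63.8, 31.5 to 33.4 and 489 to 559 CPM, so that the ieCPC libraries lay lowest and the CM libraries highest, with no overlap between any 2 groups. Receptor sums stayed in a narrower range, 27.8 to 30.3 in MEF, 41.5 to 45.8 at day 9, 23.9 to 26.9 at P3, 22.3 to 23.7 at P12 and 19.7 to 22.0 CPM in CM. Much of these sums was Cxcr7, with means of 15.7, 29.1, 17.1, 12.6 and 12.9 CPM in the same order. Single receptors could vary more, as Cxcr4 did, from a mean of 0.248 CPM in CM to 8.80 at day 9. A group mean of 1 CPM or more was reached by 21 members in MEF, 20 at day 9, 13 at P3, 14 at P12 and 20 in CM. Levels in bulk RNA do not separate fewer cells of a type from less RNA per cell, and these cannot be told apart in any result here.

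**Figure D1:**
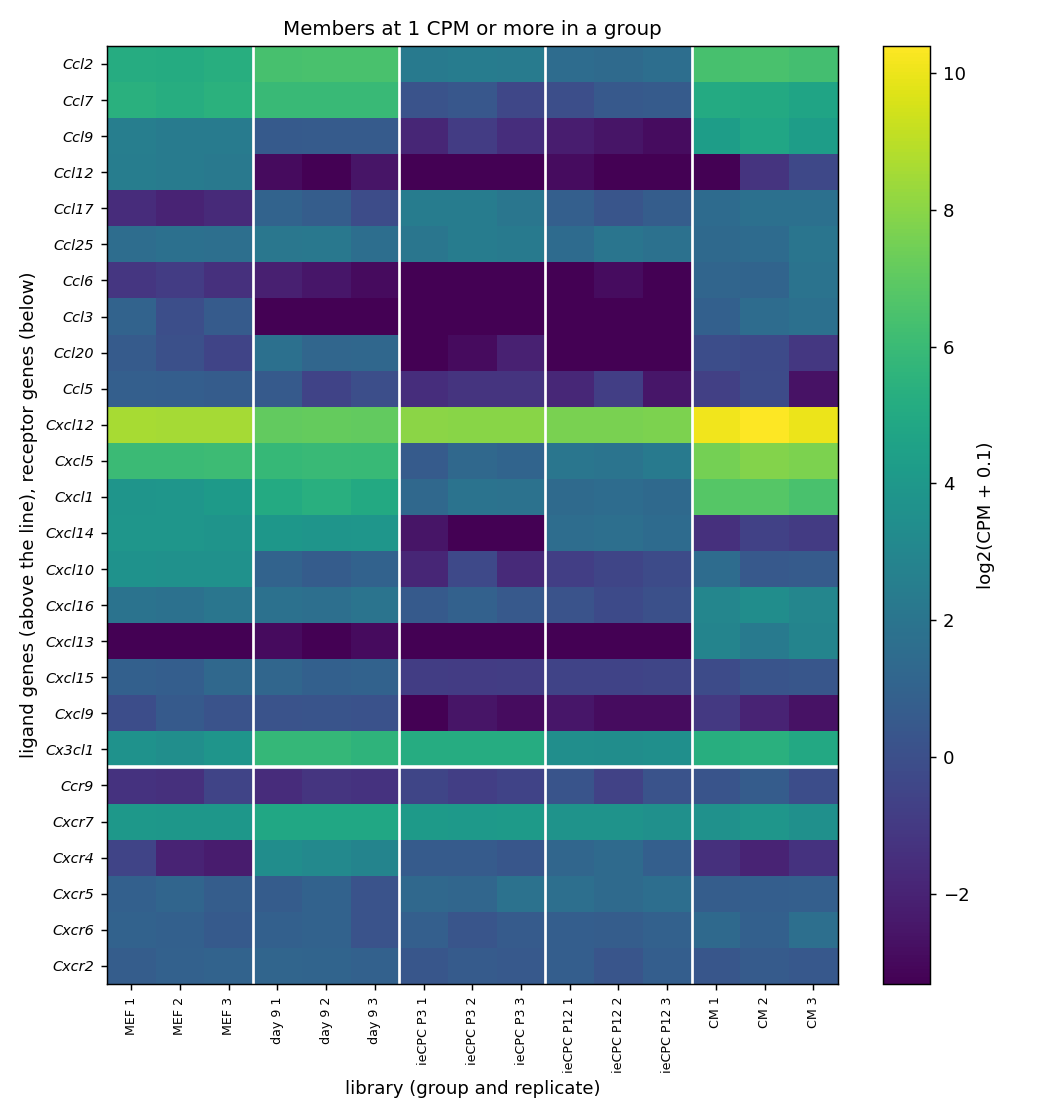
Levels of 26 members that reached a mean of 1 CPM in a group, as log2(CPM + 0.1), in each of the 15 libraries (columns, by group and replicate). Most ligand rows are darker in the P3 and P12 columns than in the CM columns, where many are still dim. Most receptor rows below the line change less.

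Cxcl1 and Cxcl10 promoters are printed because they hold matches to an NF-kB motif, GGGANNTTCC. That of Cxcl14 is printed because it holds an interferon-type motif and the gene has a pattern of its own. The Cxcl12 promoter is printed because the gene has the highest CPM of the members and its promoter holds neither of these motifs. The sequences are the 250 bases before each gene's start from RefSeq (GRCm38.p6), 5′ to 3′ on the gene's strand, with capitals marking the matches. They lie at chr5:90890995-90891244 (+) for Cxcl1, chr5:92348890-92349139 (-) for Cxcl10, chr13:56296552-56296801 (-) for Cxcl14 and chr6:117168285-117168534 (+) for Cxcl12.
Cxcl1: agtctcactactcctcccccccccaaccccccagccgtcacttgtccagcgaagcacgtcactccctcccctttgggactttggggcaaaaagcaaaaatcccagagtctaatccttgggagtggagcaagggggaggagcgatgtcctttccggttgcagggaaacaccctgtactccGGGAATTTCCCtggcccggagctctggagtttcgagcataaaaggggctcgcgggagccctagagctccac
Cxcl10: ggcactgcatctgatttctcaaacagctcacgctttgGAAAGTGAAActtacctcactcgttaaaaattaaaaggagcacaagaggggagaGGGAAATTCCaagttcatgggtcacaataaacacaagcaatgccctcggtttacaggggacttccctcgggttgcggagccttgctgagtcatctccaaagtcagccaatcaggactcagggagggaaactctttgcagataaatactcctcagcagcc
Cxcl14: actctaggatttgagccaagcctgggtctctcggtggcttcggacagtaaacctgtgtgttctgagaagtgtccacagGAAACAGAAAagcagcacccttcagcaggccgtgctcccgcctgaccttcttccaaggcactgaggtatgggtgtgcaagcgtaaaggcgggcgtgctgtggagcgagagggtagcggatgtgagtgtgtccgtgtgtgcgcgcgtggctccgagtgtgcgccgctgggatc
Cxcl12: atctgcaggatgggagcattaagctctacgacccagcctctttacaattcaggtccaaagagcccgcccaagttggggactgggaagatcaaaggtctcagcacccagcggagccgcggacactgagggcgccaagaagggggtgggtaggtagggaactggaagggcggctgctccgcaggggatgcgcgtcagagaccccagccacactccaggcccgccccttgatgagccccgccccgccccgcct
The NF-kB motif searched was GGGANNTTCC and the interferon-type motif GAAANNGAAA, on both strands, and in Cxcl1 the 2 matches of the first overlap each other. GGGANNTTCC occurred in 1.21% of 32851 promoters and in 6 of the 34 members with a promoter (Ccl1, Ccr3, Cxcl1, Cxcl10, Cxcl2 and Cxcl3). The wider GGGNNNNNCC, not marked above, occurred in 45.8% of promoters and 21 of 34 members, Cxcl12 among them. Members were counted once per gene symbol, while the shares were taken over single promoters. GAAANNGAAA occurred in 2.98% of promoters and in 3 of 34 members (Ccl19, Cxcl10 and Cxcl14). The motifs were chosen after their matches had been seen, and a match is a description of letters, not a binding site.

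Between MEF and P3 the tested members were mostly lower, and between ieCPCs and CM derivatives mostly higher. At day 9 against MEF, 8 of the 33 tested members were higher and 9 lower at an adjusted p under 0.05 in edgeR's quasi-likelihood test with Benjamini-Hochberg adjustment over 17999 genes. Of all genes tested, 57.2% were called in that comparison (29.7% higher, 27.4% lower), and the median log2 difference was -0.08 over the members and 0.05 over all genes. At P3 against day 9, 3 members were higher and 20 lower, beside 60.7% of all genes called (28.4% higher, 32.3% lower), with medians of -1.82 over the members and -0.03 over all genes. The median of -1.82 becomes -1.68 when genes with a group at 0 are set at their bound. At P3 against MEF, 5 members were higher and 21 lower, where 65.8% of all genes were called (33.3% higher, 32.5% lower), with medians of -2.41 and 0.03.

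At P12 against P3, 4 members were higher and 8 lower. These were 36.4% of the tested members, near the 36.8% of all genes called (17.3% higher, 19.5% lower). The members' median was 0.15 although more of them were called lower than higher, and that of all genes was 0.00. With upper-quartile scaling the calls over all genes turned from 3122 higher and 3507 lower to 3935 higher and 2752 lower in this comparison, and the members gave 4 higher and 7 lower. In CM derivatives against P3, 23 members were higher and 5 lower, where 63.1% of all genes were called (31.9% higher, 31.2% lower), with medians of 2.45 over the members and -0.01 over all genes. Against P12, 22 members were higher and 3 lower in CM derivatives, where 62.1% of all genes were called (31.3% higher, 30.8% lower), with medians of 1.93 and -0.02. Without the third CM library, 27 and 24 members were called against P3 and P12, and without mitochondrial genes 28 and 25. The members that passed the filter include some that passed only through 1 high group, so these counts describe them and are no test of the family.

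Ligands made up 24 of the 33 tested members. At day 9 against MEF, 6 of the 24 were higher and 7 lower, and of the 9 receptors 2 were higher and 2 lower. Of the ligands, 2 were higher and 16 lower at P3 against day 9, and 20 were higher and 2 lower in CM derivatives against P3. Of 9 receptors, 1 was higher and 4 lower at P3 against day 9, and 3 were higher and 3 lower in CM derivatives against P3. Of all genes tested, 57.2% were called at day 9 against MEF (29.7% higher, 27.4% lower). The shares were 60.7% at P3 against day 9 (28.4% higher, 32.3% lower) and 63.1% in CM derivatives against P3 (31.9% higher, 31.2% lower). The difference between ligands and receptors was not tested.

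Ccl2 and Ccl7, neighbouring genes on chromosome 11 whose products attract monocytes, were high in MEF and at day 9, low in ieCPCs and high again in CM derivatives. Ccl2 had 35.7, 35.3 and 38.8 CPM in MEF, 84.0, 89.4 and 88.3 at day 9, 4.95, 5.31 and 5.16 at P3, 2.74, 2.56 and 3.02 at P12, and 84.6, 88.0 and 78.7 in CM derivatives. No MEF library reached a day 9 or CM library, and every ieCPC library lay below all others. At day 9 Ccl2 was higher than in MEF by 1.25 ± 0.06 (edgeR adjusted p = 3.15e-14). At P3 the log2 difference from day 9 was -4.08 ± 0.07 (edgeR adjusted p = 5.13e-22), and at P12 that from P3 was -0.89 ± 0.11 (edgeR adjusted p = 4.74e-07). CM derivatives exceeded P3 ieCPCs by 4.03 ± 0.07 and P12 ieCPCs by 4.92 ± 0.08 (edgeR adjusted p = 9.84e-22 and 1.14e-22).

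Ccl7 had 41.7, 37.4 and 42.9 CPM in MEF, 63.3, 62.3 and 62.1 at day 9, 1.03, 1.21 and 0.672 at P3, 0.875, 1.32 and 1.41 at P12, and 33.0, 31.8 and 25.7 in CM derivatives. The ieCPC libraries did not overlap any other group, while P3 and P12 overlapped each other (log2 difference 0.30 ± 0.24, edgeR adjusted p = 0.357). P3 was lower than day 9 by a log2 difference of -6.00 ± 0.14, and CM derivatives were higher than P3 by 4.95 ± 0.15 (edgeR adjusted p = 2.58e-20 and 2.45e-18). Ccl7 thereby stayed below its MEF level in all 3 CM libraries, whereas Ccl2 stood above its own MEF level there; CM and MEF were not compared in a test.

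The neutrophil-attracting chemokines Cxcl1 and Cxcl5, which act through Cxcr2, followed a like course and reached their highest levels in CM derivatives. Cxcl1 had 14.4, 14.9 and 17.7 CPM in MEF, 32.8, 40.6 and 32.6 at day 9, 2.42, 3.59 and 3.46 at P3, 2.59, 2.75 and 2.51 at P12, and 111, 108 and 87.6 in CM derivatives. All CM libraries lay above all others, and P3 and P12 overlapped. The day 9 cells exceeded MEF by a log2 difference of 1.17 ± 0.11, P3 differed from day 9 by -3.48 ± 0.13, and CM derivatives exceeded P3 by 5.01 ± 0.13 (edgeR adjusted p = 3.13e-09, 2.98e-16 and 2.82e-19). Between P12 and P3 the log2 difference of Cxcl1 was -0.27 ± 0.19 (edgeR adjusted p = 0.277).

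Cxcl5 had 65.1, 65.4 and 68.9 CPM in MEF, 59.2, 63.7 and 61.8 at day 9, 1.42, 2.41 and 2.01 at P3, 4.11, 3.84 and 4.71 at P12, and 183, 228 and 210.3 in CM derivatives. The MEF and day 9 libraries lay next to each other (log2 difference at day 9 against MEF -0.11 ± 0.08, edgeR adjusted p = 0.229), and no other 2 groups came as close. At P3 Cxcl5 fell to 1.95 ± 0.498 CPM, against 61.6 ± 2.28 at day 9, a log2 difference of -4.97 ± 0.12 (edgeR adjusted p = 3.98e-20). Unlike the Ccl2 value, which was lower at P12 than at P3, that of Cxcl5 was higher by 1.11 ± 0.16 (edgeR adjusted p = 7.41e-06). CM derivatives exceeded P3 by 6.72 ± 0.11, or 106-fold, and P12 by 5.62 ± 0.10 (edgeR adjusted p = 2.79e-22 and 5.98e-22). Without the third CM library the log2 differences of CM derivatives against P3 were 4.06 for Ccl2, 5.05 for Ccl7, 5.11 for Cxcl1 and 6.71 for Cxcl5, and without mitochondrial genes they were 4.04, 4.97, 5.03 and 6.74.

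**Figure D2:**
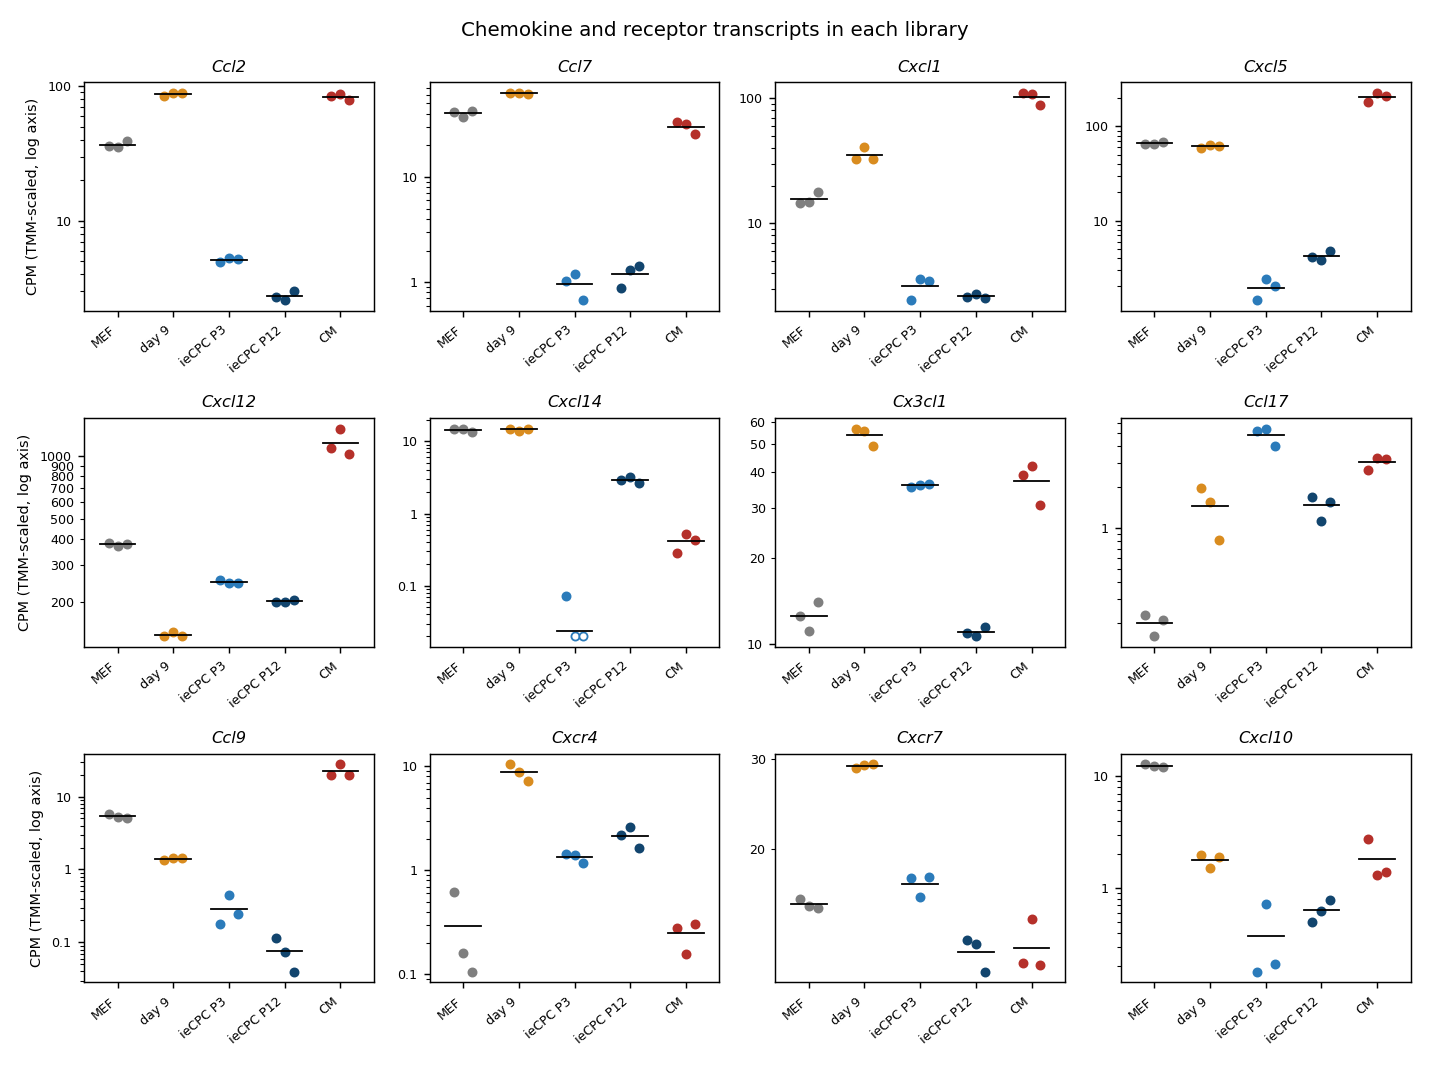
CPM on a log axis for 12 members in each library, by group from MEF to CM derivatives, with the bar at the group mean and open circles for libraries with 0 counts, drawn at 0.02 CPM. Ccl2, Ccl7, Cxcl1 and Cxcl5 are lowest in the ieCPC groups, Cxcl14 is nearly absent at P3 (2 counts), and Cxcr4 is highest at day 9.

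Per kilobase of gene length the order of the members changed between groups. Ccl7 led in MEF with 50.8 CPM per kb, ahead of Cxcl12 (46.2), Cxcl5 (40.2) and Ccl2 (32.2). At day 9 Ccl7 and Ccl2 led with 78.1 and 76.6 CPM per kb, and Cxcl12 was the fifth with 17.0. In P3 ieCPCs Cxcl12 led with 30.5 CPM per kb, followed by Cx3cl1 (9.71) and Ccl17 (9.54), and in P12 ieCPCs Cxcl12 (24.7) was followed by Cxcr7 (3.78). Cxcl12 (141), Cxcl5 (125) and Cxcl1 (107 CPM per kb) headed the order in CM derivatives.

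Other genes of the Cxcl1 and Cxcl5 cluster were present at lower levels. Cxcl15, which encodes the lung chemokine lungkine, averaged 1.92 ± 0.380 CPM in MEF, 1.95 ± 0.229 at day 9, 0.457 ± 0.00754 at P3, 0.595 ± 0.0300 at P12 and 1.02 ± 0.204 in CM derivatives. Its log2 difference was -2.09 ± 0.25 at P3 against day 9 and 1.14 ± 0.29 in CM derivatives against P3 (edgeR adjusted p = 1.66e-07 and 0.00177). Against P12 the CM value of 0.77 ± 0.29 (edgeR adjusted p = 0.0238) lost its call with upper-quartile scaling (0.66), with no filter beyond 1 count (0.75), and without P12 replicate 1 (0.74), P12 replicate 2 (0.75), CM replicate 2 (0.69) or CM replicate 3 (0.66). Cxcl2, a further ligand of Cxcr2, had 30 counts in MEF, 40 at day 9, 0 at P3, 5 at P12 and 27 in CM derivatives, so that it was at least 13.3-fold lower at P3 than at day 9 and at least 14.4-fold higher in CM derivatives than at P3, taking 3 counts over the 3 libraries as the limit that a count of 0 allows. Such limits, here and below, allow for counting error in the group at 0 alone. They leave out counting error in the other group and are therefore not 95% bounds on the fold. The intervals on ratios of small counts below are at 95% and cover counting error only.

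Cxcl12, the ligand of Cxcr4 and Cxcr7, had the highest CPM of any member in all 5 groups. It had 384, 371 and 378 CPM in MEF, 137, 143 and 137 at day 9, 255, 247 and 247 at P3, 199.8, 199.5 and 205 at P12, and 1086, 1353 and 1027 in CM derivatives. No 2 groups overlapped. The log2 difference of day 9 from MEF was -1.44 ± 0.07, and P3 ieCPCs exceeded day 9 by 0.84 ± 0.07 (edgeR adjusted p = 7.52e-14 and 5.87e-10), so it moved in the direction opposite to Ccl2 and Cxcl1 in both steps. At P12 it was lower than at P3 by a log2 difference of -0.31 ± 0.07 (edgeR adjusted p = 0.00138), and CM derivatives exceeded P3 by 2.21 ± 0.07 and P12 by 2.52 ± 0.07 (edgeR adjusted p = 1.82e-17 and 1.77e-18). Without the third CM library these were 2.29 and 2.59.

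Cxcl14, a CXC chemokine of epithelia and fibroblasts, was nearly absent at P3. It had 14.6, 14.7 and 13.6 CPM in MEF, 15.02, 14.1 and 14.97 at day 9, 0.0712, 0 and 0 at P3, 2.89, 3.19 and 2.67 at P12, and 0.280, 0.524 and 0.428 in CM derivatives. MEF and day 9 overlapped (log2 difference 0.04 ± 0.11, edgeR adjusted p = 0.756), and the 2 counts at P3 both came from replicate 1. P3 was lower than day 9 by a count ratio of 628 (interval 173 to 5190.2) and lower than MEF by 608 (168 to 5023). P12 exceeded P3 by a ratio of 125 (34.1 to 1036), with a fitted log2 difference of 6.69 ± 0.37 (edgeR adjusted p = 1.16e-12). Without P3 replicate 1 the P3 group is at 0 counts, and the fitted log2 values, which are then no bound, were 9.22 for P12 against P3, -11.53 for P3 against day 9 and 6.41 for CM derivatives against P3. CM derivatives lay between the passages, with a ratio of 17.6 (4.33 to 155) over P3 and a log2 difference of -2.81 ± 0.25 from P12 (edgeR adjusted p = 9.11e-10).

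Cx3cl1, the membrane-anchored chemokine fractalkine, and Ccl17, a ligand of Ccr4, lie next to each other on chromosome 8 and were higher at day 9 than in MEF and lower at P12 than at P3. Cx3cl1 had 12.5, 11.1 and 14.0 CPM in MEF, 56.7, 55.7 and 49.3 at day 9, 35.5, 36.1 and 36.4 at P3, 10.95, 10.7 and 11.51 at P12, and 38.9, 42.0 and 30.5 in CM derivatives. The CM libraries overlapped those of P3, and those of P12 overlapped the MEF libraries. Its log2 differences were 2.10 ± 0.10 at day 9 against MEF, -0.58 ± 0.09 at P3 against day 9, -1.71 ± 0.10 at P12 against P3 and 1.75 ± 0.10 in CM derivatives against P12 (edgeR adjusted p = 1.59e-14, 4.2e-06, 2.47e-12 and 4.54e-13). CM derivatives differed from P3 by 0.05 ± 0.09 (edgeR adjusted p = 0.673).

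Ccl17 averaged 0.200 ± 0.0361 CPM in MEF, 1.45 ± 0.580 at day 9, 4.89 ± 0.754 at P3, 1.47 ± 0.300 at P12 and 3.08 ± 0.341 in CM derivatives, so that P3 libraries were the highest. It differs from Cx3cl1 in the step between day 9 and P3, where Ccl17 was higher at P3 by 1.75 ± 0.22 (edgeR adjusted p = 4.16e-07). At P12 its log2 difference from P3 was -1.73 ± 0.23, and CM derivatives differed from P3 by -0.67 ± 0.22 and from P12 by 1.06 ± 0.25 (edgeR adjusted p = 1.6e-06, 0.00969 and 0.000702). Ccl22, the third gene at that place and also a Ccr4 ligand, had 2 counts in all libraries together.

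Cxcl16, a transmembrane chemokine that is also a scavenger receptor, was highest in CM derivatives. It had 3.61, 3.40 and 4.14 CPM in MEF, 3.40, 3.07 and 3.83 at day 9, 1.39, 1.79 and 1.31 at P3, 1.03, 0.732 and 0.903 at P12, and 7.77, 10.3 and 7.83 in CM derivatives. MEF and day 9 overlapped and the ieCPC libraries lay lowest. The log2 difference was -1.20 ± 0.18 at P3 against day 9 and 2.53 ± 0.17 in CM derivatives against P3 (edgeR adjusted p = 5.73e-06 and 1.15e-11). At P12 against P3 it was -0.76 ± 0.23 (edgeR adjusted p = 0.012), a call that was lost without P3 replicate 2 (-0.59) or P12 replicate 2 (-0.63). Its gene model overlaps Zmynd15 on the other strand, and the strand setting of the counting is not given in the sources used here.

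Ccl25, a thymic and intestinal chemokine that acts on Ccr9, varied little, with means of 3.08 ± 0.149 CPM in MEF, 3.88 ± 0.732 at day 9, 4.76 ± 0.700 at P3, 3.32 ± 0.593 at P12 and 3.07 ± 0.789 in CM derivatives. P3 exceeded MEF by 0.63 ± 0.18, and CM derivatives differed from P3 by -0.64 ± 0.19 (edgeR adjusted p = 0.0041 and 0.0059). The difference of P12 from P3, -0.52 ± 0.18 (edgeR adjusted p = 0.026), lost its call with upper-quartile scaling (-0.45) and without P3 replicate 2 (-0.41), P3 replicate 3 (-0.50), P12 replicate 1 (-0.39) or P12 replicate 3 (-0.53).

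Several CC chemokines of macrophages were present in MEF, low or absent at day 9 and in ieCPCs, and present again in CM derivatives. Ccl9, which acts on Ccr1, had 5.76, 5.17 and 5.09 CPM in MEF, 1.37, 1.44 and 1.44 at day 9, 0.178, 0.448 and 0.247 at P3, 0.114, 0.0732 and 0.0393 at P12, and 19.96, 27.6 and 19.9 in CM derivatives. No 2 groups overlapped, and the CM libraries were the highest. Its log2 difference was -1.91 ± 0.18 at day 9 against MEF, -2.25 ± 0.30 at P3 against day 9, 6.24 ± 0.21 in CM derivatives against P3 and 8.12 ± 0.27 against P12 (edgeR adjusted p = 4.92e-09, 7.88e-07, 3.74e-17 and 1.4e-17). At P12 against P3 it was -1.88 ± 0.58 (edgeR adjusted p = 0.013), a call lost with limma voom (-1.69) and without P3 replicate 2 (-1.42) or P12 replicate 3 (-1.60).

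Ccl12, a monocyte attractant close in sequence to Ccl2, had 5.49, 5.17 and 4.5995 CPM in MEF, 0.0333, 0 and 0.0684 at day 9, 0 in all 3 P3 libraries, 0.0380, 0 and 0 at P12, and 0, 0.315 and 0.673 in CM derivatives. It was lower at day 9 than in MEF by a count ratio of 145 (interval 49.2 to 705; fitted log2 -6.99, and -7.83 without day 9 replicate 3), the step in which its cluster neighbour Ccl7 rose by a log2 difference of 0.62 ± 0.09 (edgeR adjusted p = 4.78e-10 for Ccl12 and 1.55e-06 for Ccl7). CM derivatives overlapped P3 because the first CM library also had 0 counts, and over the group they were at least 9.08-fold higher. The fitted log2 difference for that comparison was 6.05 ± 1.38, and 5.12 without CM replicate 3 or 6.67 without CM replicate 1.

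Ccl3, a ligand of Ccr1, averaged 1.44 ± 0.557 CPM in MEF and 2.60 ± 0.780 in CM derivatives and had 0 counts in all 9 libraries of the other 3 groups. It was thus at least 41.3-fold lower at day 9 than in MEF and at least 73.7-fold higher in CM derivatives than at P3. Ccl4, its neighbour and a further macrophage chemokine, had the same 9 libraries at 0, with 42 counts in MEF and 14 in CM derivatives, at least 15.1-fold lower at day 9 than in MEF and at least 7.47-fold higher in CM derivatives than at P3. Ccl6, related to Ccl9, averaged 0.356 ± 0.0803 CPM in MEF and 2.61 ± 0.916 in CM derivatives, with 7 counts at day 9, 0 at P3 and 1 at P12. Against P3, CM derivatives were at least 73.1-fold higher for Ccl6. Its call at P3 against day 9 (at least 2.33-fold lower) was lost without day 9 replicate 1, and its model overlaps E230016K23Rik on the other strand.

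Ccr1, a receptor of Ccl3, Ccl5 and Ccl9 that is typical of monocytes and macrophages, was lower at day 9 than in MEF and stayed low. It had 51 counts in MEF, 3 at day 9 (all in replicate 1), 1 at P3, 2 at P12 and 1 in CM derivatives, a count ratio of 18.3 (5.92 to 91.7) below MEF at day 9. Without day 9 replicate 1 the day 9 group is at 0 counts, and the fitted log2 difference was -7.03 in place of -4.02.

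Macrophage and blood markers were, like these genes, higher in MEF than at day 9. Their sum over 24 genes was 415 to 433 CPM in MEF, 11.1 to 13.3 at day 9, 42.0 to 43.8 at P3, 27.3 to 29.3 at P12 and 206 to 265 in CM derivatives, with Lyz2 the most abundant in all groups but day 9, where Cd68 was. In MEF 18 of the 24 genes reached 1 CPM and in CM derivatives 16, against 4 in each other group. The complement genes C1qa, C1qb and C1qc were at 0 at day 9, P3 and P12, Tyrobp was at 0 at day 9, Emr1 and Cd52 were at 0 at P3 and P12, and Cd3e was at 0 at P3. Cd163 was at 0 in CM derivatives. The pan-leukocyte gene Ptprc had 6.37, 5.81 and 6.36 CPM in MEF, at most 0.152 in any library of the middle 3 groups, and 2.40, 1.94 and 1.47 in CM derivatives. Between day 9 and P3, where Ccl9 and Ccl6 fell, the marker sum rose, mostly through Lyz2 (2.22 CPM at day 9 and 31.2 at P3). Single markers went both ways in that step. Mrc1 was higher at P3 (3.65 against 1.01 CPM) and Mpeg1 lower (0.434 against 0.977 CPM). In CM derivatives Ccl9 lay above its MEF level while the marker sum lay below its own and Ccr1 had 1 count. The part of such cells in the levels of Ccl3, Ccl4, Ccl6, Ccl9, Ccl12 and Ccr1 was not tested. Ccl2, Ccl7 and Cxcl1 were higher at day 9, where the marker sum was lowest, than in MEF. For these genes, too, the part of such cells was not tested.

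**Figure D3:**
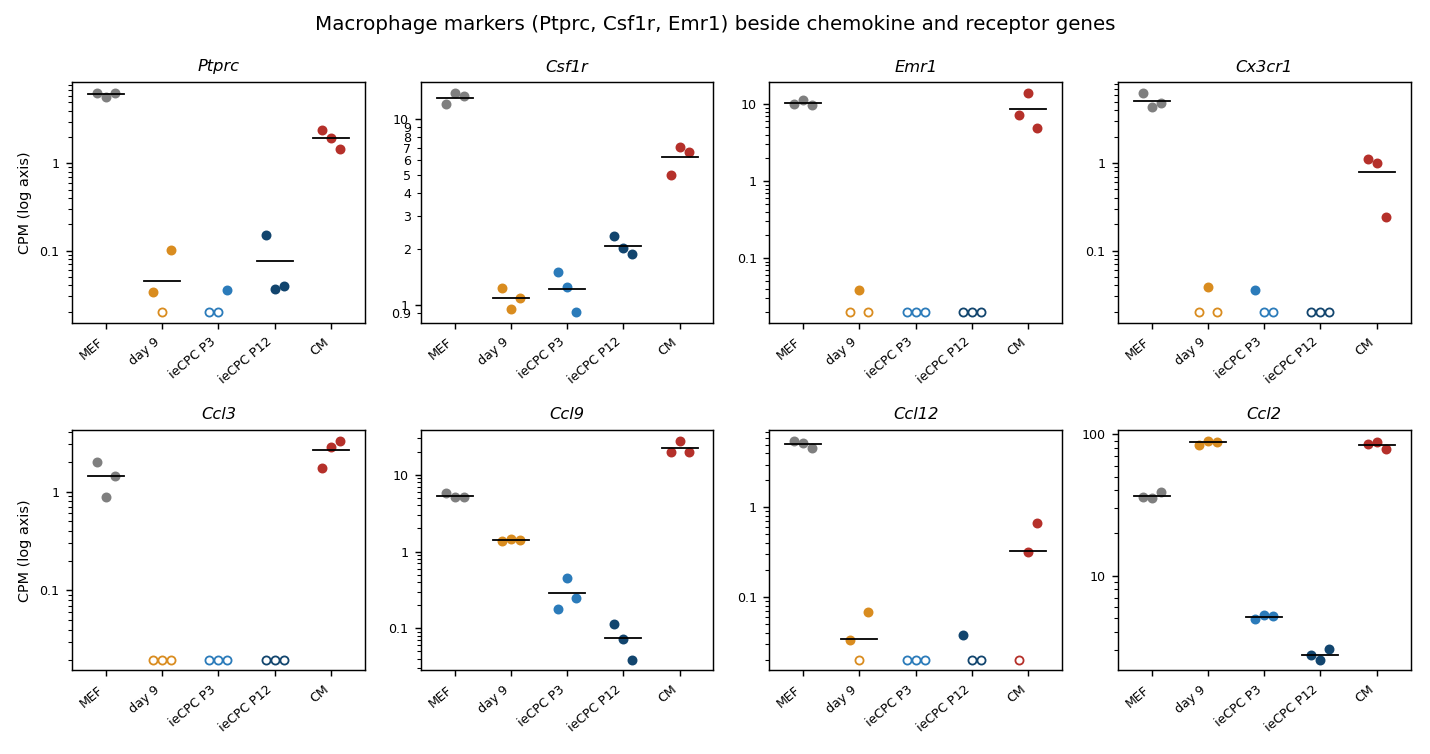
CPM on a log axis in each library for the macrophage markers Ptprc, Csf1r and Emr1, the fractalkine receptor Cx3cr1, and 4 members, with bars at group means of 0.02 CPM or more and open circles for 0 counts drawn at 0.02 CPM. Ccl3, Ccl9 and Ccl12 are higher in MEF than at day 9, as the markers are, while Ccl2 is highest at day 9 and in CM derivatives.

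Among the interferon-responsive chemokines, ligands of Cxcr3, Cxcl10 was highest in MEF. It had 12.7, 12.26 and 11.97 CPM in MEF, 1.96, 1.52 and 1.88 at day 9, 0.178, 0.724 and 0.212 at P3, 0.494, 0.622 and 0.785 at P12, and 2.74, 1.31 and 1.41 in CM derivatives. MEF libraries lay above all others, and P3 overlapped P12. The log2 difference was -2.78 ± 0.22 at day 9 against MEF, -2.25 ± 0.35 at P3 against day 9 and 2.27 ± 0.37 in CM derivatives against P3 (edgeR adjusted p = 2.07e-10, 6.57e-06 and 1.25e-05). P3 replicate 2 was the highest of its group, and without it the last 2 values were -3.15 and 3.19, and that of P3 against MEF was -5.95 in place of -5.02. Its model overlaps Art3 on the other strand.

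Cxcl9 averaged 1.09 ± 0.260 CPM in MEF and 1.03 ± 0.0355 at day 9, with 3 counts at P3, 4 at P12 and 11 in CM derivatives. Between day 9 and MEF, Cxcl9 differed by less than its spread (log2 difference -0.08 ± 0.32, edgeR adjusted p = 0.856), where Cxcl10 fell, and was lower at P3 than at day 9 by a count ratio of 29.2 (9.68 to 144), with a fitted log2 difference of -4.69, or -5.49 without P3 replicate 2. Its value in CM derivatives exceeded that at P3 by a ratio of 5.87 (1.55 to 32.8) with overlapping libraries, a call lost without P3 replicate 1 (log2 1.88, against 2.40 with all libraries) or CM replicate 1 (1.56), while without P3 replicate 2 the value was 3.22. Against P12 the fitted log2 difference in CM derivatives was 1.93 ± 0.78 (edgeR adjusted p = 0.0354), also with overlapping libraries, and that call was lost with no filter beyond 1 count (1.92), in a fit of the 6 compared libraries (1.91), with limma voom (1.53) and without P12 replicate 2 (1.75), P12 replicate 3 (1.79) or CM replicate 1 (1.09). Cxcl11 had 15 counts over all libraries.

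Cxcl13, the B-cell attractant that acts on Cxcr5, was measured almost only in CM derivatives. It had 0 counts in all MEF, P3 and P12 libraries, 0.0333, 0 and 0.0342 CPM at day 9, and 7.33, 4.72 and 7.28 CPM in CM derivatives. All CM libraries stood far above the rest, at least 182-fold over P3 and at least 168-fold over P12 for the group. Ccl19, a ligand of Ccr7, likewise had 40 counts in CM derivatives and 1 to 3 in each other group, a ratio of 21.4 (6.80 to 108) over P3. All 3 of its P3 counts came from replicate 2, and without that library the fitted log2 difference was 7.26 in place of 4.24. Its model overlaps 4930578G10Rik and near-identical copies of the gene exist in the mouse genome, so that its counts are uncertain.

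Ccl20, the ligand of Ccr6, averaged 0.992 ± 0.435 CPM in MEF, 2.55 ± 0.560 at day 9, 0.0586 ± 0.0737 at P3, 0 at P12 and 0.647 ± 0.248 in CM derivatives. Day 9 exceeded MEF by 1.37 ± 0.33, and P3 differed from day 9 by -5.33 ± 0.52 (edgeR adjusted p = 0.00127 and 1.58e-08), or -6.82 without P3 replicate 3. CM derivatives exceeded P3 by 3.38 ± 0.68 (edgeR adjusted p = 0.000204), or 4.88 without P3 replicate 3, and were at least 17.3-fold above P12.

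Ccl5, which recruits T cells and monocytes through receptors that include Ccr1, averaged 1.58 ± 0.0906 CPM in MEF, 0.941 ± 0.401 at day 9, 0.293 ± 0.0378 at P3, 0.248 ± 0.205 at P12 and 0.450 ± 0.366 in CM derivatives. Its log2 difference at P3 was -1.68 ± 0.48 from day 9 and -2.41 ± 0.45 from MEF (edgeR adjusted p = 0.00411 and 6.65e-05). CM derivatives overlapped P3 (0.66 ± 0.58, edgeR adjusted p = 0.337), which sets Ccl5 beside Cx3cl1 as 1 of the 2 tested ligands with no call in that comparison. Ccl11, the eosinophil attractant eotaxin, had 72 counts in MEF, 44 at day 9, 0 at P3, 1 at P12 and 21 in CM derivatives, at least 14.6-fold lower at P3 than at day 9 and at least 11.2-fold higher in CM derivatives than at P3.

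**Figure D4:**
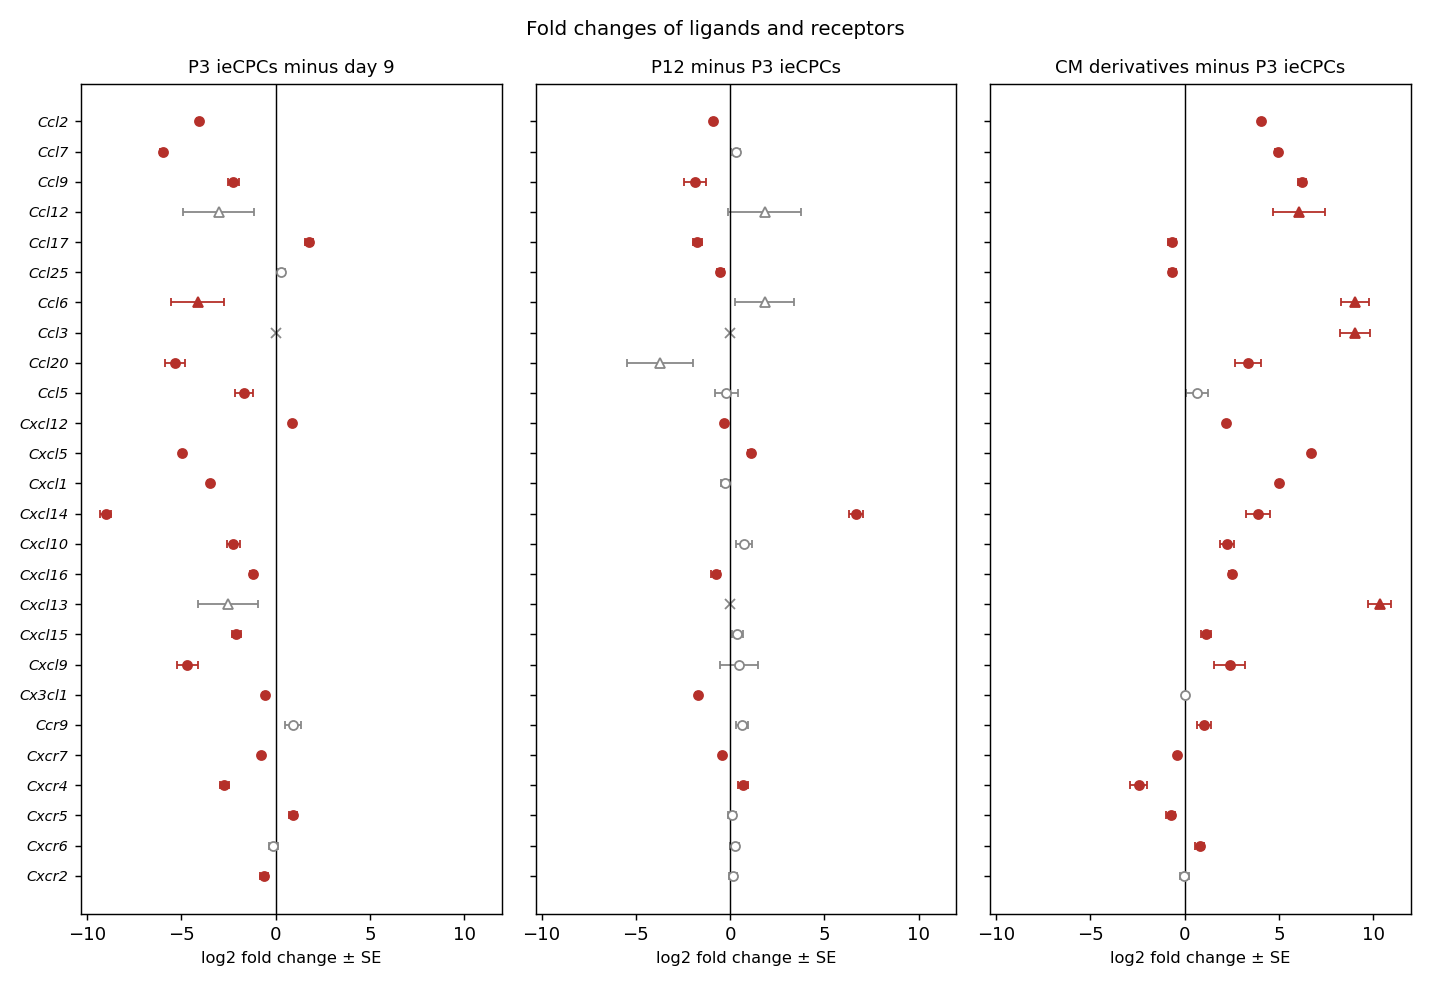
Log2 fold change ± SE of 26 members in P3 ieCPCs against day 9, P12 against P3 and CM derivatives against P3. Filled symbols passed an adjusted p under 0.05, open ones did not, triangles mark genes with 0 counts in 1 of the 2 groups, whose fitted value is no bound, and crosses mark 0 counts in both. Most ligands (upper rows) lie left of 0 in the first panel and right of it in the third, while the receptors at the bottom lie on both sides.

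Cxcr4, the signalling receptor of Cxcl12, was highest at day 9, the group with the lowest Cxcl12. It had 0.614, 0.160 and 0.105 CPM in MEF, 10.5, 8.76 and 7.18 at day 9, 1.42, 1.41 and 1.17 at P3, 2.21, 2.60 and 1.65 at P12, and 0.280, 0.157 and 0.306 in CM derivatives. CM libraries lay within the MEF range, and no other 2 groups overlapped. Day 9 exceeded MEF by 4.90 ± 0.30, or by 6.01 without MEF replicate 1, and P3 differed from day 9 by -2.72 ± 0.23 (edgeR adjusted p = 3.34e-12 and 6.43e-10). P3 exceeded MEF by 2.19 ± 0.39 (edgeR adjusted p = 3.27e-05), or by 3.29 without MEF replicate 1. CM derivatives differed from P3 by -2.43 ± 0.45 and from P12 by -3.12 ± 0.42 (edgeR adjusted p = 6.05e-05 and 7.52e-07), while Cxcl12 was higher there.

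At P12, Cxcr4 exceeded P3 by 0.69 ± 0.27 (edgeR adjusted p = 0.0464), a call lost with limma voom (0.67) and without day 9 replicate 2 (0.70), P3 replicate 1 (0.75), P3 replicate 2 (0.74), P3 replicate 3 (0.61), P12 replicate 1 (0.67) or P12 replicate 2 (0.53). Cxcr7, the atypical receptor of Cxcl12, had 16.04, 15.5 and 15.4 CPM in MEF, 28.8, 29.1 and 29.3 at day 9, 17.6, 16.2 and 17.7 at P3, 13.3, 13.1 and 11.55 at P12, and 12.0, 14.6 and 11.9 in CM derivatives. It was the receptor with the highest CPM in all groups, with day 9 above all others and CM overlapping P12. Its log2 difference was 0.89 ± 0.08 at day 9 against MEF, -0.76 ± 0.08 at P3 against day 9, -0.44 ± 0.08 at P12 against P3 and -0.41 ± 0.09 in CM derivatives against P3 (edgeR adjusted p = 1.65e-09, 1.31e-08, 0.000201 and 0.00026).

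The remaining named receptors stayed between 0.294 and 2.91 CPM on average. Cxcr2, the receptor of Cxcl1 and Cxcl5, averaged 1.76 ± 0.202 CPM in MEF, 1.98 ± 0.128 at day 9, 1.30 ± 0.120 at P3, 1.45 ± 0.271 at P12 and 1.29 ± 0.121 in CM derivatives. CM derivatives differed from P3 by -0.01 ± 0.23 (edgeR adjusted p = 0.982), beside changes of 5.01 and 6.72 in those ligands, and its call at P3 against day 9 (-0.61 ± 0.20, edgeR adjusted p = 0.0112) was lost without P3 replicate 1 (-0.53). Cxcr5, the receptor of Cxcl13, averaged 1.82 ± 0.313 CPM in MEF, 1.45 ± 0.417 at day 9, 2.73 ± 0.733 at P3, 2.91 ± 0.273 at P12 and 1.63 ± 0.0739 in CM derivatives. P3 exceeded day 9 by 0.92 ± 0.22, and CM derivatives differed from P12 by -0.83 ± 0.24 (edgeR adjusted p = 0.00103 and 0.0039), opposite in sign to its ligand. The calls at P3 against MEF (0.59 ± 0.22, edgeR adjusted p = 0.0212) and in CM derivatives against P3 (-0.74 ± 0.24, edgeR adjusted p = 0.00908) were both lost without P3 replicate 3 (0.34 and -0.50), and the first also without MEF replicate 1 (0.56) or MEF replicate 3 (0.48).

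Cxcr6, the receptor of Cxcl16, averaged 1.68 ± 0.248 CPM in MEF, 1.55 ± 0.463 at day 9, 1.41 ± 0.268 at P3, 1.66 ± 0.128 at P12 and 2.47 ± 0.699 in CM derivatives. Its excess in CM derivatives over P3 (0.80 ± 0.25, edgeR adjusted p = 0.00823) lost its call without CM replicate 3 (0.58). The gene overlaps Fyco1 on the other strand, which had 27355 counts against 646 for Cxcr6, so its values are uncertain. The receptor of Ccl25, Ccr9, averaged 0.395 ± 0.176 CPM in MEF, 0.294 ± 0.0554 at day 9, 0.563 ± 0.0790 at P3, 0.878 ± 0.286 at P12 and 1.15 ± 0.340 in CM derivatives. Its call in CM derivatives against P3 (1.03 ± 0.35, edgeR adjusted p = 0.0134) was lost without CM replicate 2 (0.77), and it overlaps Lztfl1 (14281 counts against 236), with the same uncertainty.

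The other 20 members with counts stayed under 1 CPM in all groups. Among ligands these were Ccl24, Ccl8, Ccl4, Ccl11, Ccl1, Cxcl3, Ccl22, Cxcl2, Cxcl11, Cxcl17 and Ccl19, with highest group means from 0.0175 to 0.913 CPM. Receptors in this class were Ccr1, Ccr3, Ccr7, Ccr8, Ccr10, Ccr4, Cxcr1, Ccr2 and Cxcr3, with highest group means from 0.0126 to 0.646 CPM. Ccr4, the receptor of Ccl17 and Ccl22, had 13 counts in MEF, 37 at day 9, 10 at P3, 40 at P12 and 19 in CM derivatives, with libraries of 1 group ranging from 2 to 20 counts at day 9. Its calls were lost without 4 libraries at P3 against day 9 (log2 -1.82 ± 0.66, between -1.32 and -1.75 without day 9 replicate 1 or 3 or P3 replicate 1 or 3, and -1.39 with limma voom) and without 2 at P12 against P3 (2.07 ± 0.65, 1.84 without P3 replicate 1 and 1.40 without P12 replicate 3). Ccr2, the receptor of Ccl2, Ccl7 and Ccl12, had 22 counts in all 15 libraries together and was not tested.

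Neighbouring genes did not all share a pattern. In the mm9 assembly used by the files, Ccl2, Ccl7, Ccl11, Ccl12, Ccl8 and Ccl1 lie at chr11:81849073-82119192 and Ccl5, Ccl9, Ccl6, Ccl3 and Ccl4 at chr11:83339280-83478185. Ccl12, in the first of these clusters, was nearly absent at day 9, the group in which Ccl2 and Ccl7 were highest. Cxcl5, Cxcl3, Cxcl15, Cxcl1 and Cxcl2 lie at chr5:91188325-91334935 and Cxcl9, Cxcl10 and Cxcl11 at chr5:92750357-92794511. Cxcl15, between Cxcl5 and Cxcl1, was lower in every CM library than in any MEF library, while Cxcl5 and Cxcl1 were higher there.

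**Figure D5:**
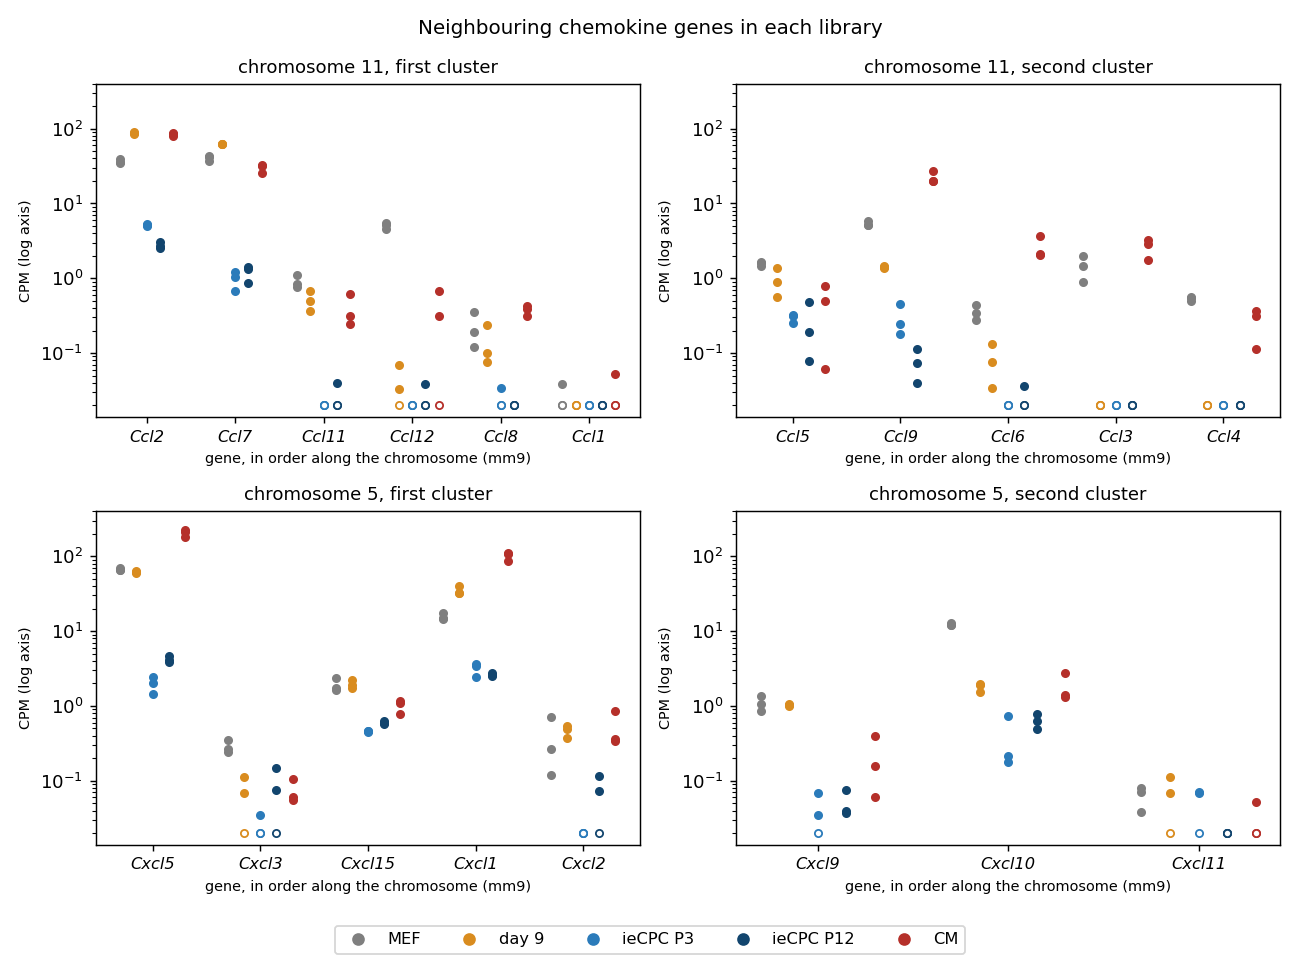
CPM on a log axis in each library for the genes of 4 chemokine clusters, in order along the chromosome, with open circles for 0 counts drawn at 0.02 CPM and colours for the 5 groups. Ccl2 and Ccl7 have points from 62.1 to 89.4 CPM at day 9 where Ccl12 is at or near 0, and Cxcl15 spans a narrower range than Cxcl5 and Cxcl1.

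Other genes of the pathway were taken from lists chosen with earlier results of these data known. Of 17 tested genes of NF-kB signalling and its upstream cytokines, 6 were higher and 8 lower at day 9 against MEF, 1 higher and 12 lower at P3 against day 9, 1 higher and 13 lower at P3 against MEF, and 6 higher and 4 lower at P12 against P3. All 17 were higher in CM derivatives against P3 and also against P12, with medians of 1.47 and 1.07 beside -0.01 and -0.02 over all genes. The list held 19 genes, and those not tested are left out of these counts. Interleukin 1 and tumour necrosis factor genes had few counts in CM derivatives, with 15 for Il1a, 1 for Il1b and 18 for Tnf. At P3 their counts were 8, 0 and 0, and in MEF 7, 2 and 79. For this and the following lists, the share of all genes called was 57.2% at day 9 against MEF, 60.7% at P3 against day 9, 65.8% at P3 against MEF, 36.8% at P12 against P3, 63.1% in CM derivatives against P3 and 62.1% against P12. Il1rn, the interleukin 1 receptor antagonist, averaged 49.7 ± 2.24 CPM in MEF, 10.8 ± 0.332 at day 9, 0.947 ± 0.136 at P3, 0.493 ± 0.0998 at P12 and 12.7 ± 1.32 in CM derivatives. Nfkbiz, an inducible NF-kB cofactor, averaged 108 ± 2.87, 31.98 ± 2.93, 26.0 ± 0.448, 10.5 ± 0.861 and 176 ± 12.4 CPM in the same order with CM last, and CM derivatives exceeded P12 by 4.07 ± 0.08 (edgeR adjusted p = 1.03e-21). Tnfaip3, a feedback inhibitor of NF-kB, and Il6ra, the interleukin 6 receptor, exceeded P3 in CM derivatives by 1.97 ± 0.08 and 3.74 ± 0.21 (edgeR adjusted p = 5.24e-16 and 2.11e-13).

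Other chemokines and chemokine-like genes showed 1 higher and 2 lower of 6 tested at day 9 against MEF, 2 and 3 at P3 against day 9, 2 and 3 at P3 against MEF, 0 and 1 at P12 against P3, 1 and 2 in CM derivatives against P3, and 1 and 1 against P12. The platelet chemokines Pf4 and Ppbp fell to 0.0111 ± 0.0192 and 0.548 ± 0.305 CPM at day 9, against 5.32 ± 0.696 and 23.3 ± 2.26 in MEF. Mif, a cytokine that binds Cxcr4 and Cd74, fell to 24.8 ± 2.29 CPM at P3, against 122 ± 7.54 at day 9 (log2 -2.29 ± 0.12, edgeR adjusted p = 7.49e-14), and Cklf fell to 5.02 ± 0.123 CPM in CM derivatives, against 10.8 ± 0.626 at P3.

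Among 8 tested atypical and other receptors, 1 was higher and 2 lower at day 9 against MEF, 2 and 0 at P3 against day 9, 4 and 2 at P3 against MEF, 0 and 3 at P12 against P3, 4 and 2 in CM derivatives against P3, and 3 and 3 against P12. Cx3cr1, the receptor of Cx3cl1, had 6.25, 4.33 and 4.88 CPM in MEF, 1 count at day 9, 1 at P3, 0 at P12, and 1.12, 0.996 and 0.245 CPM in CM derivatives. Day 9, the group with the highest Cx3cl1, was lower than MEF for Cx3cr1 by a count ratio of 442 (78.8 to 17486). Ccrl1 (ENSMUSG00000079355), an atypical receptor that removes Ccl19, Ccl21 and Ccl25, averaged 0.803 ± 0.0708 CPM in MEF, 10.7 ± 1.12 at day 9, 12.6 ± 1.01 at P3, 3.44 ± 0.428 at P12 and 22.5 ± 4.29 in CM derivatives. A second row with the symbol Ccrl1 was flatter, with means of 0.503, 0.742, 0.657, 0.963 and 1.42 CPM in the same order. The first Ccrl1 row exceeded MEF by 3.72 ± 0.18 at day 9 and differed from P3 by -1.88 ± 0.14 at P12 (edgeR adjusted p = 3.79e-14 and 1.46e-10). Cmklr1, the chemerin receptor, and Cd74, a receptor for Mif, were highest at P3, with 29.8 ± 0.703 and 7.72 ± 0.166 CPM there, and were lower in CM derivatives by log2 differences of -1.45 ± 0.11 and -2.98 ± 0.23 (edgeR adjusted p = 1.12e-10 and 9.15e-11).

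Of 20 genes of receptor signalling, 6 were higher and 6 lower at day 9 against MEF, 5 and 9 at P3 against day 9, 7 and 11 at P3 against MEF, 5 and 3 at P12 against P3, 10 and 5 in CM derivatives against P3, and 10 and 6 against P12. At day 9 and at P12 these counts are near the shares of all genes called there, 57.2 and 36.8%. Adrbk2, a kinase that desensitises receptors, averaged 0.256 ± 0.264 CPM in MEF, 5.06 ± 0.0881 at day 9, 3.67 ± 0.859 at P3, 10.6 ± 1.17 at P12 and 18.4 ± 5.04 in CM derivatives. The G-protein inhibitors Rgs2, Rgs5 and Rgs16 went separate ways at P3 against day 9, with log2 differences of -2.52 ± 0.10, 2.32 ± 0.13 and -2.21 ± 0.15 (edgeR adjusted p = 2.99e-16, 2.48e-13 and 1.08e-11). In CM derivatives Rgs2 and Rgs16 exceeded P3 by 2.11 ± 0.10 and 1.10 ± 0.17, and Rgs5 differed by -0.08 ± 0.12 (edgeR adjusted p = 2.8e-14, 6.59e-06 and 0.552).

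Genes for the cleavage of chemokines and for the heparan sulphate that holds them gave 7 higher and 9 lower of 17 tested at day 9 against MEF, 7 and 6 at P3 against day 9, 8 and 8 at P3 against MEF, 3 and 7 at P12 against P3, 4 and 10 in CM derivatives against P3, and 5 and 8 against P12, beside 57.2, 60.7, 65.8, 36.8, 63.1 and 62.1% of all genes called. Dpp4, a peptidase that inactivates Cxcl12, averaged 0.151 ± 0.0100 CPM in MEF, 3.64 ± 0.194 at day 9, 1.84 ± 0.288 at P3, 1.93 ± 0.534 at P12 and 7.70 ± 1.47 in CM derivatives. CM derivatives exceeded P3 for Dpp4 by 2.07 ± 0.19 and for Mmp2, a protease that cleaves Ccl7 and Cxcl12, by 0.86 ± 0.06 (edgeR adjusted p = 1.27e-09 and 5.96e-11). The heparan sulphate proteoglycans Sdc4 and Gpc3 differed, with Sdc4 at 172 ± 16.7 CPM in CM derivatives and 34.3 ± 2.56 at P3, and Gpc3 at 378 ± 12.05 CPM in CM derivatives and 415 ± 1.26 at P3. At P3 against day 9, Gpc3 was higher by 2.31 ± 0.05 and Sdc4 lower by a log2 difference of -0.62 ± 0.08 (edgeR adjusted p = 2.36e-20 and 2.95e-07).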

How the data were processed

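RNA-seq libraries were made from total RNA (10 µg per sample) of 15 samples. The authors deposited raw read counts per gene, per the file headers, and the submitters' processing notes name TopHat2 2.0.13, featureCounts (Subread) and the mm9 build. Strand setting and treatment of reads with several matches are not given in the sources used here. The deposited CPM and FPKM columns were not used.

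Groups follow the labels. Counts were fitted with edgeR 4.0.16 (R 4.3.3), with TMM scaling, the default filterByExpr filter (17999 of 37991 genes kept) and 1 model with a mean per group over all 15 libraries. The 6 comparisons used 2-sided quasi-likelihood F tests with Benjamini-Hochberg adjustment over all genes kept, at adjusted p under 0.05. The SE of a log2 fold change was taken from the F statistic. The common biological coefficient of variation was 0.0679. The code was tested on simulated data with known changes. Totals of 21823056 to 29996464 counts set the precision, and for 0 counts a limit of 3 counts over the group's 3 libraries was used. Replicate counts differed by more than sampling noise in all pairs, by 2.1 to 8.58 chi-square per degree of freedom outside CM and by 10.3 to 39.7 within CM.

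Members with a group mean of at least 1 CPM were named, with values in every library from 5 CPM, those below were named in groups, and of each list of other pathway genes up to 4 called genes were named. A member and a marker that these rules cover are counted in the totals but not reported here. The members and lists were chosen with earlier results of these data known. The 25 alternatives were RLE and upper-quartile scaling, no mitochondrial genes, a robust fit, 2 other filters, a replicate block, a fit of only the 6 compared libraries, leaving out each of the 15 libraries, limma 3.58.1 voom and DESeq2 1.42.0.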

Additional observations from a re-analysis of the deposited data

How the results depend on the processing

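Of 131 called results for single members over 3256 alternatives, 3209 kept their direction and their call, 47 kept the direction and lost the call, and none turned round. In 115 results the call was kept under each alternative that was run, which for 19 of the 131 leaves out the filter of at least 1 CPM in 3 libraries, where the gene was not tested. The number of members called at day 9 against MEF was 17, with 15 to 21 under other settings and 17 to 19 with 1 library left out. At P3 against day 9 it was 23 (20 to 25 and 21 to 24), at P3 against MEF 26 (22 to 29 and 25 to 26), at P12 against P3 12 (10 to 13 and 9 to 12), in CM derivatives against P3 28 (23 to 30 and 27 to 29) and against P12 25 (21 to 25 and 24 to 26). Members tested were 33 in the main fit, 26 with at least 1 CPM in 3 libraries and 47 with no filter beyond 1 count. Over all genes, the calls in the same order of comparisons were 10289, 10934, 11844, 6629, 11354 and 11174. Under other settings they ran from 9550 to 10851, 10153 to 11539, 10907 to 12313, 6349 to 8374, 10598 to 11730 and 10465 to 11547. Upper-quartile scaling moved the median of all genes to 0.12 at day 9 against MEF, to 0.10 at P3 against MEF and to -0.12 in CM derivatives against P12. The replicate numbers share only a number between groups (correlations of deviations from -0.057 to 0.063), and the fit with a replicate block called 17, 23, 26, 12, 28 and 25 members, which moved no count. Members with few counts are limited by depth, and fitted folds against a group at 0 moved with the tool (Cxcl13 in CM derivatives against P3 10.36 with edgeR and 8.48 with limma voom).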
